A study of Mus musculus with 10 samples.

Results

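The unfolded protein response was followed through 10 of the 32648 genes in the deposited table, in renin cells sorted from single mouse kidneys. The genes were taken by symbol from a list of its 3 branches. Atf6 and Herpud1 stood for the ATF6 branch, Ern1 and Xbp1 for the IRE1-XBP1 branch, and Eif2ak3, Atf4, Ddit3, Asns, Trib3 and Chac1 for the PERK-ATF4 branch. The list rests on known function, but it was chosen with earlier results of these data known. All 10 symbols were found. The test of changes covered 9 of them, since Chac1 had too few reads to be tested.

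The animals were adult Ren1c-YFP mice on a C57BL/6 background, 8 to 12 weeks old, which carry a yellow fluorescent reporter under renin gene regulation. The 3 coarctation mice were studied 72 h after the aorta had been narrowed between the origins of the renal arteries. The 2 sham mice, studied at the same time, had an operation in which the aorta was not exposed or narrowed. From each kidney 1000 living fluorescent cells were collected after enzymatic digestion of the cortex, so the 4 groups were right and left kidneys of coarctation mice and right and left kidneys of sham mice, with 10 libraries in all. A kidney was the unit sequenced, and the mice were the biological replicates. The p-values of the main test measure the spread between these few animals within a group. They do not use the pairing of kidneys, which the fit with mouse as a block does.

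Proteins that enter the secretory pathway fold in the endoplasmic reticulum, and unfolded protein there is sensed by ATF6, IRE1 (encoded by Ern1) and PERK (encoded by Eif2ak3). ATF6 is cut in the Golgi to release a transcription factor, IRE1 splices Xbp1 mRNA so that it encodes an active factor, and PERK phosphorylates eIF2, which slows translation in general and favours translation of ATF4. Renin cells make a secreted enzyme that passes through this compartment. The sensors are switched on as proteins, which mRNA levels do not measure, and the gene table does not separate spliced from unspliced Xbp1.

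Promoters of the set were searched because the branches end on known DNA elements. RefSeq windows of 300 bases on GRCm38.p6, from 250 bases before to 50 bases after the start site, matched 9 of the 10 genes by symbol, all but Atf6. Both strands were searched for ERSE (CCAAT, then 9 bases of any kind, then CCACG), ERSE-II (ATTGG, then 1 base, then CCACG), the UPRE core TGACGTGG, and the C/EBP-ATF composite element CARE, written TGATGNAAN. These elements are known to be bound by ATF6 with NF-Y, by ATF6 or XBP1, by XBP1 and by ATF4. The matches found did not overlap each other. Of 32851 mouse windows, ERSE was in 39 (0.119%), ERSE-II in 12 (0.0365%), the UPRE core in 222 (0.676%) and CARE in 1299 (3.95%). In the 9 windows ERSE and the UPRE core were not matched, ERSE-II was matched in Herpud1, and CARE in Herpud1, Asns, Trib3 and Chac1. The stretches around these matches are shown 5′ to 3′ on the strand of the gene, with the matched bases in capitals, because they are the 4 promoters of the set that hold an element of their branch.
Herpud1, chr8:94386291-94386412, plus strand: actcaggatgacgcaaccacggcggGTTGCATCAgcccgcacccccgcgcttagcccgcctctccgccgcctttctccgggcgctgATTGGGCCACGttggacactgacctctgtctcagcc
Asns, chr6:7693210-7693257, minus strand: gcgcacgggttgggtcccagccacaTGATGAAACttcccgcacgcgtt
Trib3, chr2:152344029-152344057, minus strand: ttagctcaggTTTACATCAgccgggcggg
Chac1, chr2:119351023-119351081, plus strand: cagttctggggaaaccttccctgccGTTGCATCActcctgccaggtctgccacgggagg
In Herpud1 the first capitals are a CARE on the opposite strand at -113 to -105 and the second are ERSE-II at -52 to -42, counted with the start site's first base as 0. The CARE of Asns lay on the gene's strand at -23 to -15. In Trib3 and Chac1 it lay on the opposite strand, at 13 to 21 and at -194 to -186. A match describes the letters of the window and shows no binding.

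Depth ran from 20029817 to 32006229 estimated counts per library. Levels are given in TPM, the authors' abundance scaled by transcript length and library total, and differences within a mouse in scaled counts, which are log2 counts relative to library size (CPM). Ren1 itself, which defines these cells, was at 5451 to 11982 TPM in right kidneys and 29285 to 48620 TPM in left kidneys of coarctation mice, and at 21776 to 48591 TPM in right and 30521 to 43896 TPM in left kidneys of sham mice. Both libraries of sham mouse 1 stood apart from all others on the first principal component (22.7% of variance), and both of coarctation mouse 1 on the second (15.0%). The test was edgeR's quasi-likelihood test over 18825 genes with Benjamini-Hochberg adjustment and a threshold of 0.05. Changes are on the log2 scale with the model's standard error (SE). None of the 9 tested genes, and 0% of all tested genes, passed in any of the 5 comparisons.

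Transcription factors and Herpud1 were the abundant messages, and the sensors were scarce. Averaged over the 10 libraries, Ddit3 was at 219 ± 88.4 TPM (SD), Atf4 at 54.2 ± 21.1, Herpud1 at 41.0 ± 13.6 and Xbp1 at 32.7 ± 17.3 TPM. Asns followed at 5.18 ± 2.25 TPM. The sensor messages averaged 1.94 ± 0.605 TPM for Atf6, 1.41 ± 1.02 for Eif2ak3 and 1.23 ± 0.702 for Ern1, and the ATF4 targets Trib3 and Chac1 came last at 0.369 ± 0.375 and 0.131 ± 0.244 TPM. Ddit3 was above Atf4 in 10 of 10 libraries and Xbp1 above Asns in 10 of 10. Asns was above Atf6 in 9 of 10. The order of Atf4, Herpud1 and Xbp1 was less firm, since each step held in 7 of 10 libraries and neighbouring means lay within an SD of each other. The same was true of the 3 sensors, where Atf6 exceeded Eif2ak3 in 7 of 10 and Eif2ak3 exceeded Ern1 in 7 of 10 libraries. Herpud1 and Xbp1 were the abundant ends of their branches, and in the PERK-ATF4 branch abundance ran from its most abundant gene, Ddit3, down to its scarcest, Chac1.

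**Figure D1:**
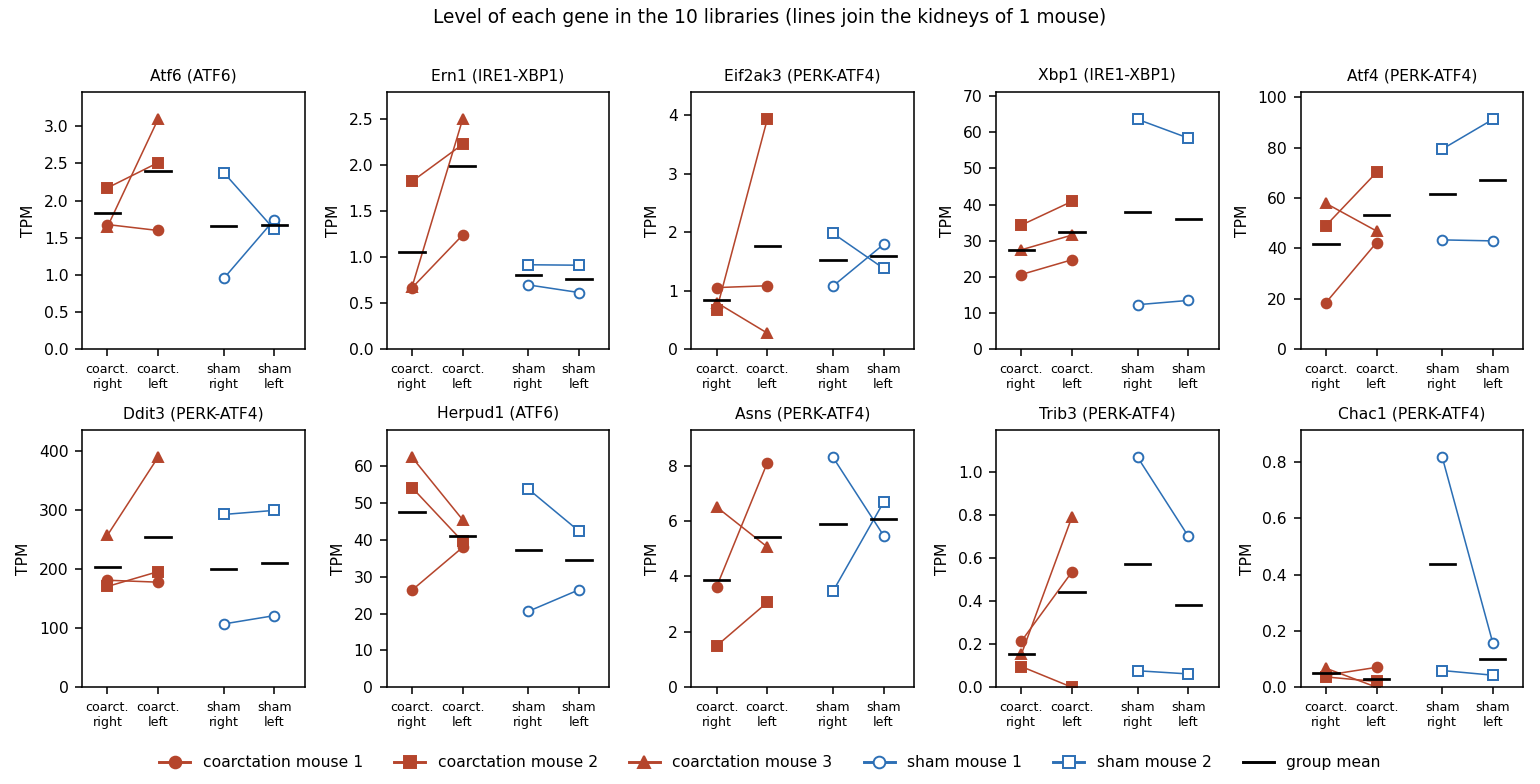
TPM of the 10 genes (vertical axes, each with its own scale from 0) in right and left kidneys of coarctation mice (filled) and sham mice (open). Lines join the kidneys of a mouse and black bars are group means. Xbp1 and Ddit3 differ more between sham mouse 1 and sham mouse 2 than between the kidneys of either mouse.

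All 3 sensors had their highest group mean in left kidneys of coarctation mice, at 1.99 TPM for Ern1, 2.40 TPM for Atf6 and 1.76 TPM for Eif2ak3. Ern1, the kinase and endonuclease IRE1 (chr11:106394650-106487852, minus strand, 22 exons, GENCODE vM21 on GRCm38), was at 0.668, 1.83 and 0.678 TPM in right kidneys of coarctation mice 1, 2 and 3, and at 1.24, 2.23 and 2.50 TPM in their left kidneys. In sham mice 1 and 2 it was at 0.700 and 0.919 TPM in right and 0.617 and 0.914 TPM in left kidneys. All 3 left kidneys of coarctation mice were thus above all 4 sham kidneys, while the right and left kidneys of coarctation mice overlapped through mouse 2. The share of tested genes above all 4 sham kidneys was not counted. Against left kidneys of sham mice alone, 4.87% of tested genes were higher without overlap. The right minus left change in coarctation mice was -1.10 (SE 0.61, adjusted p = 1), a 2.15-fold lower level in right kidneys. These levels rest on 65 to 315 estimated counts per library. The average transcript length that the authors' table assigns to Ern1 ran from 1913 to 5934 bases, and TPM depends on this length. So do the estimated counts, which are labelled as TPM scaled by length and library size, and the changes fitted to them.

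Atf6, the sensor that becomes a transcription factor (chr1:170704674-170867771, minus strand, 16 exons), was at 1.68, 2.17 and 1.65 TPM in right and 1.60, 2.51 and 3.09 TPM in left kidneys of coarctation mice. Sham mice had 0.952 and 2.38 TPM in right and 1.74 and 1.61 TPM in left kidneys. The groups overlapped, and the right minus left change was -0.55 (SE 0.45, adjusted p = 1), with the widest difference in coarctation mouse 3. In coarctation mouse 1 its direction depended on the scale, slightly lower in the right kidney in scaled counts and slightly higher in TPM.

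Eif2ak3, the kinase PERK (chr6:70844515-70905245, plus strand, 17 exons), was at 1.05, 0.678 and 0.797 TPM in right kidneys of coarctation mice and at 1.09, 3.93 and 0.277 TPM in left kidneys. Sham mice had 1.08 and 1.98 TPM in right and 1.79 and 1.38 TPM in left kidneys. The lowest and the highest of the 10 values were both in left kidneys of coarctation mice, so that the right minus left change of -1.09 (SE 0.80, adjusted p = 1) rested on mouse 2. Without that mouse it was 0.41 (SE 0.93). Estimated counts were 29 to 417 per library, the assigned transcript length ran from 889 to 3662 bases, and 222 bases were identical to Gm43292, so its values are uncertain.

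Of the transcription factors, Xbp1 had the most even side difference. Xbp1, the target of IRE1's splicing (chr11:5520659-5525893, plus strand, 5 exons), was at 20.7, 34.3 and 27.5 TPM in right and 24.7, 40.9 and 31.6 TPM in left kidneys of coarctation mice. Sham mice had 12.3 and 63.6 TPM in right and 13.5 and 58.4 TPM in left kidneys. The right kidney was below the left in each coarctation mouse (-0.35, -0.40 and -0.43 on the log2 scale), yet the sham mice spanned a wider range than all 6 kidneys of coarctation mice. The change over mice was -0.40 (SE 0.59, adjusted p = 1). With mouse as a block, which compares kidneys of the same animal, it was -0.40 with an SE of 0.20 (unadjusted p = 0.0871, adjusted p = 0.854).

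Atf4, the factor whose translation PERK favours (chr15:80255184-80257541, plus strand, 4 exons), was at 18.5, 49.1 and 57.9 TPM in right and 42.3, 70.2 and 46.9 TPM in left kidneys of coarctation mice. Sham mice had 43.4 and 79.5 TPM in right and 43.0 and 91.3 TPM in left kidneys. Its lowest value was the right kidney of coarctation mouse 1 and its highest the left kidney of sham mouse 2. The right minus left change in coarctation mice was -0.53 (SE 0.43, adjusted p = 1), and -0.63 (SE 0.27, unadjusted p = 0.0477, adjusted p = 0.839) with mouse as a block. It was the only gene of the set with an unadjusted p under 0.05 in that blocked comparison, where 5.93% of tested genes had one.

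Ddit3 encodes CHOP, a factor induced by ATF4 and linked to cell death (chr10:127290774-127296288, plus strand, 4 exons). It was at 181, 171 and 257 TPM in right and 178, 196 and 389 TPM in left kidneys of coarctation mice. Sham mice had 107 and 292 TPM in right and 121 and 299 TPM in left kidneys. The right minus left change in coarctation mice was -0.49 (SE 0.49, adjusted p = 1), and 0.09 without the left kidney of mouse 3, the highest library. In mouse 1 the right kidney was lower in scaled counts and higher in TPM. Ddit3 shares 68 bases with Mars on the opposite strand, which held 102 to 525 estimated counts against 1624 to 7686 for Ddit3, and the strand of the reads is not given in the sources used here.

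The targets shared no pattern across the groups. Herpud1, a membrane protein of endoplasmic reticulum-associated degradation (chr8:94386438-94395377, plus strand, 8 exons), is induced through several branches, and its promoter shown above holds elements of ATF6 and of ATF4. It was at 26.4, 54.2 and 62.5 TPM in right and 38.0, 39.6 and 45.5 TPM in left kidneys of coarctation mice, and at 20.6 and 53.8 TPM in right and 26.5 and 42.4 TPM in left kidneys of sham mice. The left kidneys of coarctation mice lay within the range of the right ones, and the change was 0.02 (SE 0.41, adjusted p = 1), and -0.13 (SE 0.54) without coarctation mouse 3.

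Asns, asparagine synthetase (chr6:7675169-7693254, minus strand, 12 exons), was at 3.63, 1.50 and 6.51 TPM in right and 8.10, 3.06 and 5.06 TPM in left kidneys of coarctation mice. Sham mice had 8.30 and 3.47 TPM in right and 5.48 and 6.68 TPM in left kidneys. The right kidney was lower in coarctation mice 1 and 2 and higher in mouse 3, and the change was -0.66 (SE 0.63, adjusted p = 1).

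Trib3, a pseudokinase induced by ATF4 and CHOP (chr2:152337422-152344032, minus strand, 4 exons), held 8, 4 and 5 estimated counts in right and 17, 0 and 27 in left kidneys of coarctation mice. Sham mice had 28 and 3 in right and 20 and 2 in left kidneys. Coarctation mice 1 and 3 were higher on the left, and among sham mice both kidneys of mouse 1 were high and both of mouse 2 low. The change of -1.62 (SE 1.48, adjusted p = 1) rests on these few counts.

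Chac1, a glutathione-degrading enzyme induced by ATF4 (chr2:119351229-119354381, plus strand, 3 exons), held 2, 2 and 3 estimated counts in right and 3, 1 and 0 in left kidneys of coarctation mice. Sham mice had 29 and 3 in right and 6 and 2 in left kidneys. It stayed out of the test, and the 29 counts (0.817 TPM) of the right kidney of sham mouse 1 stood alone. Sham mouse 1 thus held the highest counts of both Trib3 and Chac1, the scarcest genes of the set, while its Xbp1 and Ddit3 were the lowest of the 5 mice.

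The comparison of right with left kidneys in coarctation mice asks which genes differ across the narrowed point of the aorta. Fitted changes were below 0 for 8 of the 9 tested genes, with a median of -0.55, against 9101 of 18825 tested genes below 0 and a median of 0.02. No gene of the set had an unadjusted p under 0.05, which 4.63% of tested genes had. Atf6, Ern1, Xbp1 and Ddit3, 4 of 9, were lower in the right kidney of all 3 coarctation mice in scaled counts, as were 13.5% of tested genes. On the TPM scale this held for Ern1 and Xbp1, since Atf6 and Ddit3 turned in mouse 1. The median TPM difference of all genes was 0.15 on the log2 scale in this comparison, against -0.01 in scaled counts. In TPM the right and left groups overlapped for each of the 9 genes, while 2.97% of tested genes were lower and 8.19% higher without overlap.

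By branch, the median fitted change was -0.27 for the 2 ATF6 genes, -0.75 for the 2 IRE1-XBP1 genes and -0.66 for the 5 tested PERK-ATF4 genes. Within coarctation mice 1, 2 and 3 the IRE1-XBP1 pair had medians of -0.66, -0.42 and -1.25. The PERK-ATF4 genes had -1.18, -0.67 and 0.07, and the ATF6 pair -0.32, -0.03 and -0.46. The IRE1-XBP1 pair was lower on the right in each mouse, whereas 3 of the 5 PERK-ATF4 genes were higher on the right in mouse 3. A difference between branches was not tested, as each holds few genes.

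**Figure D2:**
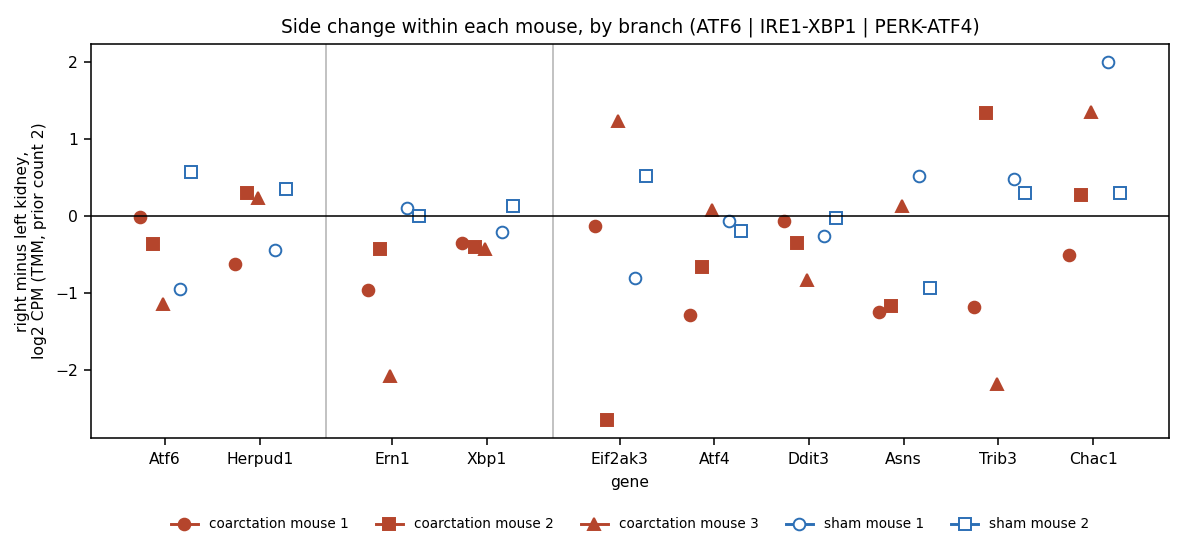
Right minus left kidney difference in log2 CPM (vertical axis) of each gene in each coarctation mouse (filled) and sham mouse (open), grouped by branch. Ern1 and Xbp1 lie below 0 in all 3 coarctation mice, Eif2ak3 and Trib3 spread from -2.65 to 1.34, and Chac1 rests on 0 to 29 estimated counts.

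Between the kidneys of sham mice the fitted changes of 8 genes lay between -0.16 and 0.11, and that of Trib3 was 0.52 (SE 1.76). Ern1 differed by 0.10 and 0.00 in sham mice 1 and 2, and Xbp1 by -0.21 and 0.13. Atf4 and Ddit3, 2 of 9, were lower in the right kidney of both sham mice, as were 24.3% of tested genes, and in TPM Atf4 turned in sham mouse 1. Ern1 and Trib3, 2 of 9, were higher in both, as were 24.5%. No gene of the set had an unadjusted p under 0.05, against 1.94% of tested genes. The test of the difference between the coarctation and sham side changes gave -1.15 (SE 0.96) for Ern1, -0.47 (SE 0.93) for Xbp1, -0.37 (SE 0.68) for Atf4 and -0.40 (SE 0.77) for Ddit3. Adjusted p was 1.00 for all 9 genes, and 3.05% of tested genes, none of the 9 among them, had an unadjusted p under 0.05. The side changes of the set in coarctation mice were therefore not shown to differ from those in sham mice.

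In left kidneys, coarctation against sham, Ern1 was the gene of the set that stood out. It averaged 1.99 ± 0.662 TPM in coarctation mice (SD, n = 3) and 0.765 ± 0.210 TPM in sham mice (n = 2), a change of 1.60 (SE 0.71, 3.03-fold higher). The groups did not overlap in TPM, with 4.87% of tested genes not overlapping in this direction. The transcript length assigned to Ern1, on which TPM and estimated counts depend, was 2087, 3380 and 1913 bases in left kidneys of coarctation mice. In left kidneys of sham mice it was 4228 and 4151 bases, and the part of this length in the change was not tested. Ern1 had an unadjusted p of 0.0427, under 0.05 as for 4.75% of tested genes in either direction and 1.84% in this one. It did not pass after adjustment (adjusted p = 0.912). Its change ran from 1.29 to 2.02 over 19 alternative settings, with adjusted p of at least 0.426. The other fitted changes were 0.77 (SE 0.51) for Atf6, 0.52 (SE 0.55) for Ddit3, 0.50 (SE 0.47) for Herpud1, 0.62 (SE 1.63) for Trib3, 0.32 (SE 0.89) for Eif2ak3, 0.13 (SE 0.70) for Asns, 0.05 (SE 0.66) for Xbp1 and -0.13 (SE 0.48) for Atf4. Those of Xbp1, Ddit3, Atf4, Trib3 and Asns changed direction with the sham mouse. Xbp1 was at 1.59 without sham mouse 2 and -0.68 without sham mouse 1, Ddit3 at 1.43 and -0.03, Atf4 at 0.63 and -0.61, Trib3 at -0.23 and 3.15, and Asns at 0.38 and -0.06.

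In right kidneys, coarctation against sham, changes of the set went both ways. Eif2ak3 averaged 0.843 ± 0.192 TPM in coarctation mice (n = 3) and 1.53 ± 0.637 TPM in sham mice (n = 2). Its groups did not overlap in TPM, being lower in coarctation mice as for 11% of tested genes, but overlapped in scaled counts, and the change was -0.72 (SE 0.88, adjusted p = 0.995). Ern1 was at 0.45 (SE 0.68), Herpud1 at 0.41 (SE 0.47), Atf6 at 0.22 (SE 0.50) and Ddit3 at 0.11 (SE 0.54). Asns was at -0.39 (SE 0.70), Xbp1 at -0.43 (SE 0.65), Atf4 at -0.50 (SE 0.47) and Trib3 at -1.52 (SE 1.60). None had an unadjusted p under 0.05, against 3.82% of tested genes. The left and right comparisons with sham mice draw on the same 5 animals. Median TPM differences of all genes were -0.22 in left and -0.12 in right kidneys, against 0.03 and 0.01 in scaled counts.

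Genes that ATF6 is known to regulate include ER chaperones, and the 3 with the smallest p in right against left kidneys of coarctation mice are given. Of a list of 13 further ATF6 regulators and targets, 12 had a fitted change below 0 in right against left kidneys of coarctation mice (median -0.91), and 7 of these had an unadjusted p under 0.05, against 2.25% of tested genes in that direction. Hspa5, the chaperone BiP that holds the sensors inactive, was at 64.0, 93.8 and 67.0 TPM in right and 150, 224 and 245 TPM in left kidneys of coarctation mice, and at 110 and 157 TPM in right and 128 and 156 TPM in left kidneys of sham mice. Its right kidneys of coarctation mice were below every other kidney. Of all tested genes, 2.97% were lower in TPM without overlap in right against left kidneys of coarctation mice. The right minus left change of Hspa5 was -1.63 (SE 0.29, adjusted p = 0.244, and 0.0529 with mouse as a block). Sdf2l1, a cofactor of BiP, averaged 6.19 ± 2.89 TPM in right and 61.1 ± 14.0 TPM in left kidneys of coarctation mice (n = 3), a change of -3.38 (SE 0.53, adjusted p = 0.156).

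Manf, a secreted factor induced by ER stress, was at 81.1, 93.9 and 113 TPM in right and 307, 300 and 344 TPM in left kidneys of coarctation mice. Sham mice had 168 and 156 TPM in right and 165 and 146 TPM in left kidneys. The sham values lay between those of the coarctation sides without overlap. In right against left kidneys of coarctation mice, 2.97% of tested genes were lower without overlap. Coarctation against sham, 4.87% were higher without overlap in left kidneys and 11% lower in right kidneys. The share of genes with the whole order was not counted, and Manf was named for its small p. The right minus left change of Manf in coarctation mice was -1.90 (SE 0.26, adjusted p = 0.125). With mouse as a block Manf fell in right kidneys of coarctation mice (adjusted p = 0.0197), as did Ren1 (adjusted p = 0.00275), and 0.0266% of tested genes (5 genes) passed that fit. Sdf2l1 was at 1.97 (SE 0.58) in left and -1.44 (SE 0.53) in right kidneys, coarctation against sham, and Manf at 1.29 (SE 0.29) and -0.62 (SE 0.28). Among the 9 tested genes of the set the size of the side change reached 1.62 for Trib3 and 1.10 for Ern1.

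**Figure D3:**
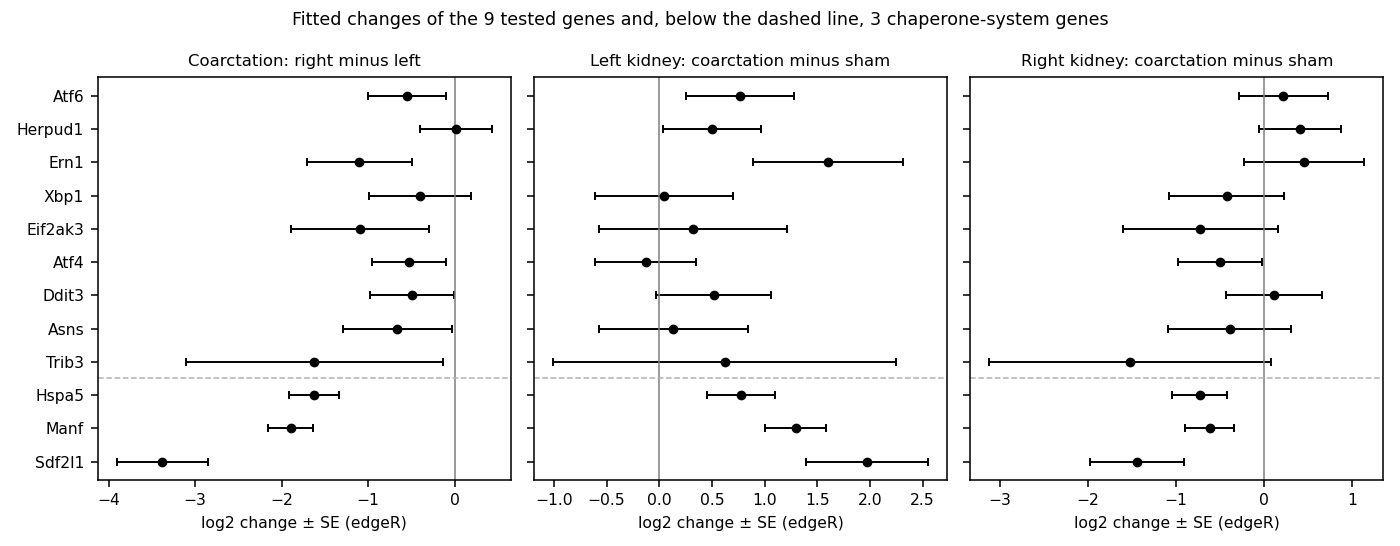
Fitted log2 changes with SE bars (horizontal axes, scales differ between panels) of the 9 tested genes and, below the dashed line, Hspa5, Manf and Sdf2l1, for right minus left kidneys of coarctation mice and for coarctation minus sham in left and in right kidneys. The 3 chaperone-system genes were chosen for the smallest p of the ATF6 list in the comparison of the first panel, and the panels share libraries. They lie below 0, above 0 and below 0 in the 3 panels. Ern1, which was not chosen by p, is at -1.10, 1.60 and 0.45.

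Lists of other genes in each branch were described by counts and medians for right against left kidneys of coarctation mice, where 48.3% of all tested genes were below 0. The genes named from each list are the 3 with the smallest p in this comparison. Some genes are counted in more than 1 list. Sel1l and Syvn1 are in the ATF6 list and in that of ER-associated degradation, and Dnajc3 is in the IRE1-XBP1 and eIF2 lists. Of 17 IRE1-XBP1 regulators and targets, 13 were below 0 (median -0.47), and 1 had an unadjusted p under 0.05, against 2.25% of tested genes in that direction. It was Sec61b, a subunit of the translocation channel (-0.63, SE 0.28). Dnajb11, a cochaperone of BiP, was at -0.69 (SE 0.33) and Pdia6, a disulfide isomerase, at -0.70 (SE 0.35). Of 14 genes of eIF2, eIF2B, the eIF2 kinases and phosphatases, and Dnajc3, 9 were below 0 (median -0.10). Of the 14, 1 had an unadjusted p under 0.05, against 4.63% of tested genes in either direction. It was Eif2ak2, the kinase PKR, which was above 0 at 1.17 (SE 0.49). The eIF2B subunit gene Eif2b5 was at -0.67 (SE 0.45) and the eIF2 subunit gene Eif2s3x at -0.52 (SE 0.42). All adjusted p were 1.

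ATF4 targets were described in 3 lists by function. Of 15 stress and death targets of ATF4 and CHOP, 11 were below 0 (median -0.44). Of these 11, 2 had an unadjusted p under 0.05, against 2.25% of tested genes in that direction. The targets with the smallest p were the factor gene Atf5 (-1.94, SE 0.70), the receptor gene Vldlr (-0.86, SE 0.40) and the death gene Bbc3 (-2.64, SE 1.30). Of 16 genes of amino acid synthesis and uptake, 8 were below 0 and 8 above (median 0.00), with the transporter subunit gene Slc3a2 at -0.67 (SE 0.39), Pck2 at -0.66 (SE 0.41) and the transporter gene Slc1a4 at 1.32 (SE 0.99). Of 12 tRNA synthetases, 7 were below 0 (median -0.03), with Aars at -0.58 (SE 0.34), Iars at 0.62 (SE 0.40) and Yars at 0.51 (SE 0.50). Neither the amino acid list nor the synthetases held a gene with an unadjusted p under 0.05, which 4.63% of tested genes had. None of the 3 lists held a gene that passed the test.

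Of 15 genes of ER-associated degradation, 12 were below 0 (median -0.41), and 4 of these had an unadjusted p under 0.05, against 2.25% of tested genes in that direction. Derl3, a channel component, was at 0 to 0.229 TPM in right and 1.84 to 11.7 TPM in left kidneys of coarctation mice, and at 0.0271 to 0.657 TPM in right and 0.117 to 1.25 TPM in left kidneys of sham mice (adjusted p = 0.722 for right against left in coarctation mice). Derl1, its paralog, was at -1.02 (SE 0.34) and Selenos, a selenoprotein of the same complex, at -0.88 (SE 0.24). Of 7 other ER-bound factors, 5 were below 0 (median -0.07). Creb3l1 averaged 0.0820 ± 0.0343 TPM in right and 0.799 ± 0.359 TPM in left kidneys of coarctation mice (adjusted p = 0.992), Creb3l4 was at 3.08 (SE 1.61) and Nfe2l1 at -0.40 (SE 0.42).

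Within single mice the ATF6 list had medians of -1.33, -1.02 and -0.90 in coarctation mice 1, 2 and 3 and of -0.17 and -0.11 in sham mice 1 and 2. The IRE1-XBP1 list had -0.58, -0.37 and -0.47, and 0.02 and -0.02. Both lists were below 0 in each coarctation mouse, and the median over all tested genes lay between 0.00 and 0.03 in every mouse. The degradation list, in the same order, had -0.55, -0.05 and -0.56, and 0.59 and 0.06, and the stress and death list -0.59, -0.15 and -0.80, and -0.15 and 0.63. The eIF2 list had 0.04, -0.02 and -0.29, and 0.04 and 0.12. In left kidneys, coarctation against sham, medians were 0.78 for the ATF6 list (11 of 13 above 0), 0.22 for the IRE1-XBP1 list (12 of 17), 0.39 for the degradation list (14 of 15), 0.34 for the stress and death list (10 of 15) and 0.10 for the eIF2 list (9 of 14). They were 0.01 for the amino acid list (8 of 16), 0.01 for the tRNA synthetases (6 of 12) and -0.11 for the other ER-bound factors (3 of 7), against -0.02 over all tested genes (9178 of 18825). Right kidneys, coarctation against sham, had an ATF6 list median of -0.42 (10 of 13 below 0). The IRE1-XBP1 list had -0.09 (11 of 17), degradation -0.44 (10 of 15), and stress and death -0.12 (8 of 15). The amino acid list had -0.36 (10 of 16), the synthetases -0.02 (7 of 12), and all tested genes -0.05 (9926 of 18825). Above 0 were the eIF2 list at 0.09 (9 of 14 above 0) and the other ER-bound factors at 0.19 (4 of 7).

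**Figure D4:**
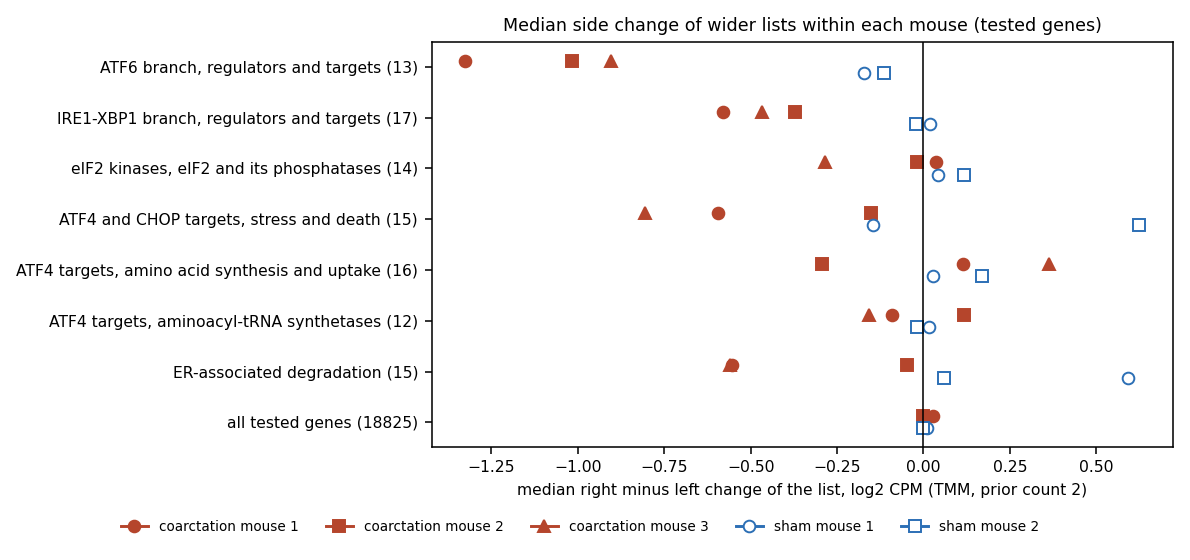
Median right minus left difference in log2 CPM (horizontal axis) of the wider lists in each coarctation mouse (filled) and sham mouse (open), with the number of tested genes in parentheses. The list of other ER-bound factors is not shown. The ATF6 and IRE1-XBP1 lists lie at -0.37 or lower in all 3 coarctation mice and between -0.17 and 0.02 in sham mice, and all tested genes lie near 0.

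Levels varied both between animals and between the kidneys of an animal. The mean of a mouse's kidneys spanned a 5.32-fold range over the 5 mice for Xbp1, which was lowest in sham mouse 1 and highest in sham mouse 2, a span of 2.41 on the log2 scale, while its largest side difference was 0.43. For Ddit3 the span was 1.76 and the largest side difference 0.83. For Atf6 these were 1.09 and 1.14, and for Eif2ak3 1.64 and 2.65. Over the 10 libraries, which share 5 animals and their depth, Xbp1 followed Ddit3 with a Pearson r of 0.80 and Herpud1 followed Ddit3 with 0.80 and Xbp1 with 0.78, given as a description. Atf6 followed Ern1 with 0.77. Eif2ak3, Asns and Trib3 followed none of these, with r between -0.65 and 0.24 against Atf6, Herpud1, Ern1, Xbp1, Atf4 and Ddit3.

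Of 9896 well-expressed genes, those most like Xbp1 over the 10 libraries were Fhl2 (r = 0.98), Tceal3 (r = 0.977) and Hopx (r = 0.973). Those most like Atf4 were Nenf (r = 0.971), Dtx3 (r = 0.965) and Ddx50 (r = 0.957), and those most like Atf6 were Commd8 (r = 0.956), Mrpl19 (r = 0.932) and Mrpl20 (r = 0.924). No ER chaperone was among the 3 closest to any of these factors.

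Marker genes of renin cells and of other cell types were summed in each library. In right kidneys of coarctation mice the 6 renin cell genes summed to 6789 to 15593 TPM, against 32983 to 55805 TPM in left kidneys. In sham mice they summed to 24239 to 59404 TPM in right and 33631 to 52909 TPM in left kidneys. Among them was EYFP, the reporter used for the sort. It was at 60.6 to 174 TPM in right and 369 to 959 TPM in left kidneys of coarctation mice. In sham mice EYFP was at 176 to 979 TPM in right and 189 to 717 TPM in left kidneys. Most of each renin cell sum was Ren1. In right against left kidneys of coarctation mice, 4 of the 6 genes had a fitted change below 0 and 2 above 0. In scaled counts 4 were lower and 1 was higher on the right in all 3 coarctation mice. The 14 loop, distal tubule and collecting duct markers summed to 195 to 1029 TPM in right and 94.9 to 289 TPM in left kidneys of coarctation mice, against 119 to 313 TPM in right and 241 to 452 TPM in left kidneys of sham mice. The 12 leukocyte markers summed to 285 to 941 TPM in right and 68.5 to 464 TPM in left kidneys of coarctation mice, against 126 to 333 TPM in right and 126 to 437 TPM in left kidneys of sham mice, and 1 of them was at 0 in all right kidneys of coarctation mice. Proximal tubule markers (12 genes) overlapped between all groups, at 848 to 10167 TPM over the 10 libraries, and endothelial markers (10 genes) lay between 65.3 and 112 TPM. The 8 podocyte markers summed to 26.5 to 35.1 TPM in right and 36.9 to 88.6 TPM in left kidneys of coarctation mice, and to 54.4 to 115 TPM in right and 48.3 to 82.3 TPM in left kidneys of sham mice. The sums of duct and leukocyte markers overlapped between right and left kidneys of coarctation mice, while those of podocyte markers did not. Median fitted changes there were 1.39 for duct (10 of 14 above 0) and 0.70 for leukocyte markers (9 of 12 above 0). Podocyte markers had -1.19 (7 of 8 below 0), proximal tubule -0.50 (11 of 12) and endothelial markers -0.11 (6 of 10). Duct medians were 1.75, 0.83 and 1.68 within coarctation mice 1, 2 and 3, and 0.13 and -0.82 in sham mice. The part of these marker levels in the side changes of the set was not tested, and fewer renin cells among those sorted cannot be told apart from less RNA of these genes in each cell. The 12 early genes that respond to tissue dissociation summed to 1565 to 4901 TPM in right and 1942 to 3843 TPM in left kidneys of coarctation mice, and to 1881 to 4796 TPM in right and 1885 to 4682 TPM in left kidneys of sham mice. These sums overlapped between all groups, and the part of digestion in the level of Ddit3 was not tested.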

How the data were processed

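The deposited table gives 3 values per gene and library. Per the file headers, the abundance columns are TPM, the count columns are estimated counts and the length columns are average transcript lengths in bases. A further deposited column labels these estimated counts as TPM scaled by length and library size. FastQC and the build GRCm38 (mm10) appear in the submitters' processing notes. For the aligner, quantifier, annotation and read strand, names were not given in the sources used here.

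Estimated counts were rounded, filtered with filterByExpr and scaled by TMM in edgeR 4.0.16 (R 4.3.3), which left 18825 of 32648 genes. The 4 groups entered a single quasi-likelihood fit to the 10 libraries (common dispersion 0.45, 6 residual degrees of freedom), which gave the 5 comparisons, with p-values adjusted over all tested genes and a threshold of 0.05. Differences within a mouse, the scaled counts of the text, are log2 CPM with TMM and a prior count of 2. TPM is per length and was used for levels. Depth was 20029817 to 32006229 estimated counts. Reads carry no molecular identifiers, so counting errors within a library are not molecule errors.

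The labels number the mice, and this number ties the kidneys of an animal. Deviations from group means correlated between the kidneys of a mouse at 0.127, 0.0496 and 0.0307 in coarctation mice 1, 2 and 3. In sham mice the value was 0.398 for both mice. With 2 mice per group their deviations are equal and opposite, so this is a single value and is not comparable with those of coarctation mice. Alternatives were DESeq2 size factors, no filter, DESeq2 1.42.0, limma-voom (limma 3.58.1), mouse as a block, and leaving out each library or each mouse. The fit with mouse as a block had 3 residual degrees of freedom. Promoters are from RefSeq and positions from GENCODE vM21, both on GRCm38.

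The genes, the wider lists and the comparisons were chosen with earlier results of these data known, so list counts and medians carry no test. Named beside the 10 genes were the 3 genes of each of 8 lists with the smallest p in right against left kidneys of coarctation mice, the 3 genes most correlated with Xbp1, Atf4 and Atf6 taken from genes whose log2 CPM averaged 2 or more, and Ren1 and EYFP as a check of the sort.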

Additional observations from a re-analysis of the deposited data

Results flagged for a closer look

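For 3 of the 35 tested genes that the text names by role or by p, the right minus left difference went one way in all 3 coarctation mice and the other way in both sham mice. The same held for 6.45% of all 18825 tested genes. Selenos and Iars had been named for their small p in right against left kidneys of coarctation mice. Ern1 was at -0.96, -0.44 and -2.08 in coarctation mice 1, 2 and 3 and at 0.10 and 0.00 in sham mice 1 and 2, and the test of the difference gave -1.15 (SE 0.96, edgeR unadjusted p = 0.252). Its sham values are close to 0. Selenos, a selenoprotein of ER-associated degradation, was at -1.002, -0.65 and -0.97 in coarctation mice and at 0.09 and 0.33 in sham mice, with a tested difference of -1.10 (SE 0.37, unadjusted p = 0.0118). Iars, isoleucyl-tRNA synthetase, was at 0.29, 1.00 and 0.74 in coarctation mice and at -1.30 and -0.77 in sham mice, with a tested difference of 1.62 (SE 0.64, unadjusted p = 0.0252). None passed after adjustment over all tested genes, where each had an adjusted p of 1.00.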

How the results depend on the processing

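No gene of the set passed the threshold in any of 882 repeats over its 45 results, and 107 of these repeats turned the direction of a change. Side changes of Atf6, Ern1, Xbp1, Atf4, Asns and Trib3 in coarctation mice kept their direction under every alternative run. So did changes of Atf6, Herpud1 and Ern1 in left kidneys, coarctation against sham. Every alternative used the same estimated counts, so the part of the assigned transcript lengths was not tested. Numbers of genes past the threshold over the whole table, 0 in each comparison, were 112, 19, 63, 67 and 70 without a filter on low counts and 76, 28, 34, 39 and 57 with DESeq2, for coarctation right against left, sham right against left, the difference between these, left kidneys and right kidneys. With mouse as a block (paired kidneys) 5 genes passed for coarctation right against left. The block gave -0.029 for Herpud1 in coarctation mice, -0.19 for Atf6, -0.046 for Herpud1 and -0.042 for Xbp1 in sham mice, and 0.017 for the difference of Herpud1, and changed the call of no gene of the set. Limma-voom gave -0.021 for Herpud1 in coarctation mice, -0.16 for Atf6, -0.033 for Herpud1 and -0.030 for Xbp1 in sham mice, 0.013 for the difference of Herpud1, and 0.050 for Xbp1 in right kidneys. In left kidneys it gave -0.25 for Eif2ak3, -0.080 for Asns and for the median of the PERK-ATF4 genes, -0.10 for Trib3, and 0.27 for the median of the IRE1-XBP1 list, which was also 0.27 without the filter. Leaving out 1 library or 1 mouse gave these ranges. For coarctation right against left, genes past the threshold were 0 to 4, and changes were -1.60 to 0.41 for Eif2ak3, -0.23 to 0.36 for Herpud1, -0.67 to 0.089 for Ddit3, -0.35 to 0.017 for the ATF6 pair's median, -0.49 to -0.26 for the IRE1-XBP1 list and -0.31 to 0.11 for the eIF2 list. For sham right against left they were -0.99 to 0.59 for Atf6, -0.94 to 0.71 for Herpud1, -0.32 to 0.45 for Ern1, -1.77 to 1.62 for Xbp1, -0.83 to 0.53 for Eif2ak3, -0.84 to 0.59 for Atf4, -1.19 to 0.82 for Ddit3, -1.98 to 3.02 for Trib3 and -0.94 to 0.50 for Asns. For the difference they were 0 to 1 gene past the threshold, -1.13 to 0.44 for Atf6, -0.69 to 0.95 for Herpud1, -2.02 to 1.37 for Xbp1, -1.62 to 0.45 for Eif2ak3, -1.12 to 0.31 for Atf4, -1.31 to 0.70 for Ddit3, -1.17 to 0.28 for Asns and -4.64 to 0.36 for Trib3. In left kidneys they were -0.68 to 1.60 for Xbp1, -0.95 to 0.82 for Eif2ak3, -0.61 to 0.63 for Atf4, -0.031 to 1.43 for Ddit3, -0.44 to 0.39 for Asns, -0.23 to 3.16 for Trib3, 0.31 to 1.81 for the IRE1-XBP1 pair, 0.47 to 1.03 for the ATF6 list, 0.011 to 0.43 for the IRE1-XBP1 list and 0.017 to 0.47 for the eIF2 list. In right kidneys they were 0 to 3 genes past the threshold, -0.051 to 0.83 for Ern1, -0.36 to 1.22 for Atf6, -0.18 to 1.46 for Herpud1, -1.21 to 1.42 for Xbp1, -0.95 to 0.19 for Atf4, -0.50 to 1.22 for Ddit3, -0.92 to 0.22 for Asns and -2.35 to 1.00 for Trib3. Where a sham group was left with 1 library, that library was assumed to vary like the other groups. The cause of these shifts was not tested. Few reads lay behind Trib3, Chac1, Ern1 and Eif2ak3, and there were 2 sham mice.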
